A study of Homo sapiens with 16 samples.

Results

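The 47 genes described here lie on the long arm of chromosome 17 between 80 Mb and the chromosome end (hg38). They were chosen by measured RNA levels, because this stretch of genes had been seen to be lower in 1 venetoclax-resistant clone of the KMS12PE cell line, clone C, and not in its clones A and D. Of the 47, 42 are listed in the KMS12PE table of 12592 genes and 40 in the KMS27 table of 14560 genes, with 39 in both. CARD14, BAIAP2, AATK, SECTM1 and FN3K have no row in the KMS12PE table. CARD14, BAIAP2, AATK, CD7, SECTM1, METRNL and NOTUM have none in the KMS27 table. All 42 and all 40 passed the filter on low counts. The levels of clone C, clone A, clone D and the parental cells chose the members, so the differences of clone C from the others, and of clones A and D from the parental cells, are a description and were not tested. KMS27 took no part in the choice and was tested. Clone D was also tested against clone A. The choice had taken both clones as not low, so that test is not independent of it.

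The RNA came from 2 human myeloma lines with t(11;14), the translocation that places CCND1 beside the immunoglobulin heavy chain locus. The labelled source is the bone marrow plasma cell. Venetoclax blocks the survival protein BCL2. Single cells that outlived a high dose of the drug were grown into clones, called DTEP clones in the labels, and the clones were kept in 100 nM venetoclax. In KMS12PE the populations are the parental cells and clones A, C and D, with libraries numbered 1 and 3. In KMS27 they are the parental cells and clones B5, C1 and C5, with libraries numbered 1 and 2. The drug dose of the parental cells, if any, is not stated, and the medium for both lines was RPMI-1640 with serum. Each clone is 1 clone from 1 cell, and each population has 2 libraries that are not stated to come from separate cultures. The p-values therefore measure the spread between these libraries, which may be technical. Whole-genome sequencing of the clones was not analysed here.

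The KMS12PE libraries held 5831289 to 13674426 counts each, and the KMS27 libraries 20257318 to 52615971. Levels are given as CPM, each gene's counts over the library total scaled by TMM. Of 10 plasma cell markers 9 were listed in both lines (not CD27), summing to 2923 to 3705 CPM in KMS12PE and 5322 to 11345 CPM in KMS27, and CCND1 lay between 601 and 1208 CPM over the 16 libraries. In KMS12PE none of the markers of B cells, NK cells, monocytes, erythroid cells or stroma was listed, and the single listed T cell marker stayed at or under 1.76 CPM. EPCAM, an epithelial marker, was at 43.3 to 109 CPM there with KRT8 and KRT18 not listed. In KMS27 2 of 4 B cell markers were listed, PAX5 at 13.7 to 26.3 CPM and MS4A1 at 0 to 9.70 CPM, summing to 13.8 to 35.95 CPM. The single listed T cell marker reached 2.97 CPM there and the single NK cell marker 0.744 CPM, with none listed for monocytes, erythroid cells, stroma or epithelium. CD38, a plasma cell marker, ranged from 2.36 to 111 CPM over the KMS27 libraries. The part of these markers in the results was not tested.

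The end of 17q is densely packed with genes of unrelated function, most of them used by every cell. It holds the fatty acid synthase FASN, the mTORC1 scaffold RPTOR and the cytoplasmic actin ACTG1. It also holds P4HB, a disulfide isomerase that plasma cells need to fold antibody chains. Members that sit side by side here can have nothing in common in function beyond their place. In bulk RNA, fewer cells with a transcript and less of it in each cell cannot be told apart.

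The starts of these genes are rich in CpG, as is usual for genes that are on in most tissues. RefSeq start windows (GRCh38.p14, 250 bases before to 50 bases after the start) were matched for 36 of the 47. Their median GC content was 73%, against 58.7% over all 35116 windows, and their median number of CpG pairs was 39, against 14. The letters GGGCGG (or CCGCCC on the other strand) were found in 29 of 36 windows (80.6%), against 45% of all windows. CCAAT (or ATTGG) was found in 18 (50%), against 34.6%, and TATAAA (or TTTATA) in 4 (11.1%), against 11.5%. The windows set against them were not limited to protein-coding genes, to genes on in these cells or to this region, while every member is protein coding. These differences are therefore not shown to be particular to the members. A window can also lie away from the gene start used elsewhere here, as for NPLOC4 (window chr17:81577384-81577683, gene chr17:81556887-81648465, minus strand). A match describes the letters and is no sign that a factor binds. The windows of 4 members follow, each 5′ to 3′ on the gene's strand with these 3 motifs in capitals. ARHGDIA and P4HB are shown as members that were low in clone C, ACTG1 as one that was less low, and GAA as the one that was not low. P4HB alone of the 4 has the TATAAA letters, overlapping with TTTATA, and GAA and ARHGDIA have no CCAAT.
ARHGDIA, chr17:81871288-81871587, minus strand: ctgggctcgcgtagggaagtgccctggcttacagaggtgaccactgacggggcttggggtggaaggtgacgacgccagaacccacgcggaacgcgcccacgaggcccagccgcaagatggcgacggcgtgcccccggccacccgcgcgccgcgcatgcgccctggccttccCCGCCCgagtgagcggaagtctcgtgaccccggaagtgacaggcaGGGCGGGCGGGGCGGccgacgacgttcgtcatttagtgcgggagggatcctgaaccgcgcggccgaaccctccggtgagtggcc
P4HB, chr17:81860486-81860785, minus strand: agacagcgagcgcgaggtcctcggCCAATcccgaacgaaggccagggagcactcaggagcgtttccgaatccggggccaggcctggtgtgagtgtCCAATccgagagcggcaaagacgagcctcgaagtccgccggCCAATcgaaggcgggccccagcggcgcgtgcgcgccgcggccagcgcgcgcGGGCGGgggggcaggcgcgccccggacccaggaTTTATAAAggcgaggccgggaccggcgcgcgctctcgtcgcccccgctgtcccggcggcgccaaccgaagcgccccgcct
ACTG1, chr17:81512750-81513049, minus strand: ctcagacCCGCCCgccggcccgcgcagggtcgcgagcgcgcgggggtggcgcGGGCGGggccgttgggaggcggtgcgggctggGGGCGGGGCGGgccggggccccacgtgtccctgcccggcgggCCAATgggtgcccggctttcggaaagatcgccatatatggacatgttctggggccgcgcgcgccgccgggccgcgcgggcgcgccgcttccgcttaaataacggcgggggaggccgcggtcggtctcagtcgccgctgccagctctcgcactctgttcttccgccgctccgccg
GAA, chr17:80101331-80101630, plus strand: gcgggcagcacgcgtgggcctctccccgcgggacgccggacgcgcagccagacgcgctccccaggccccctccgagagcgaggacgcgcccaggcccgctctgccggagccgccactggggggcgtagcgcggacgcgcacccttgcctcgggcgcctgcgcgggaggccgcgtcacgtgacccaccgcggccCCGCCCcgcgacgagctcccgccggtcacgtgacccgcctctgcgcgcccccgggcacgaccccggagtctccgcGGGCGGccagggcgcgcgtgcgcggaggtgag

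In clone C of KMS12PE most members were at close to 50% of their level in the other KMS12PE populations. The median member was at 50.4% of the mean of clone A, clone D and the parental cells (middle 50% of members 44.1% to 54.6%). Both clone C libraries lay below all other 6 libraries for 38 of 42 members, which was so for 4.94% of all genes tested and is what the members were picked for. For 0 of the 42 did both lie above, against 5.81% of all genes. Of the 42 members 32 were at 40% to 60%, against 1.86% of all genes. On the log2 scale the median member was -0.96 against parental, and -1.06 against the mean of clones A and D, where all genes had medians of 0.00 and -0.01. The summed level of the members other than ACTG1 was 1776 and 1815 CPM in clone C and 3419 to 3662 CPM in the other 6 libraries. The 2 clone C libraries had medians of 49.96% and 54.2% of the parental mean, while those of clones A and D ran from 105% to 108%. Clones A and D against the parental cells had median log2 differences of 0.06 and 0.07, and each had 27 members above 0 and 15 below. These comparisons share the parental libraries.

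**Figure D1:**
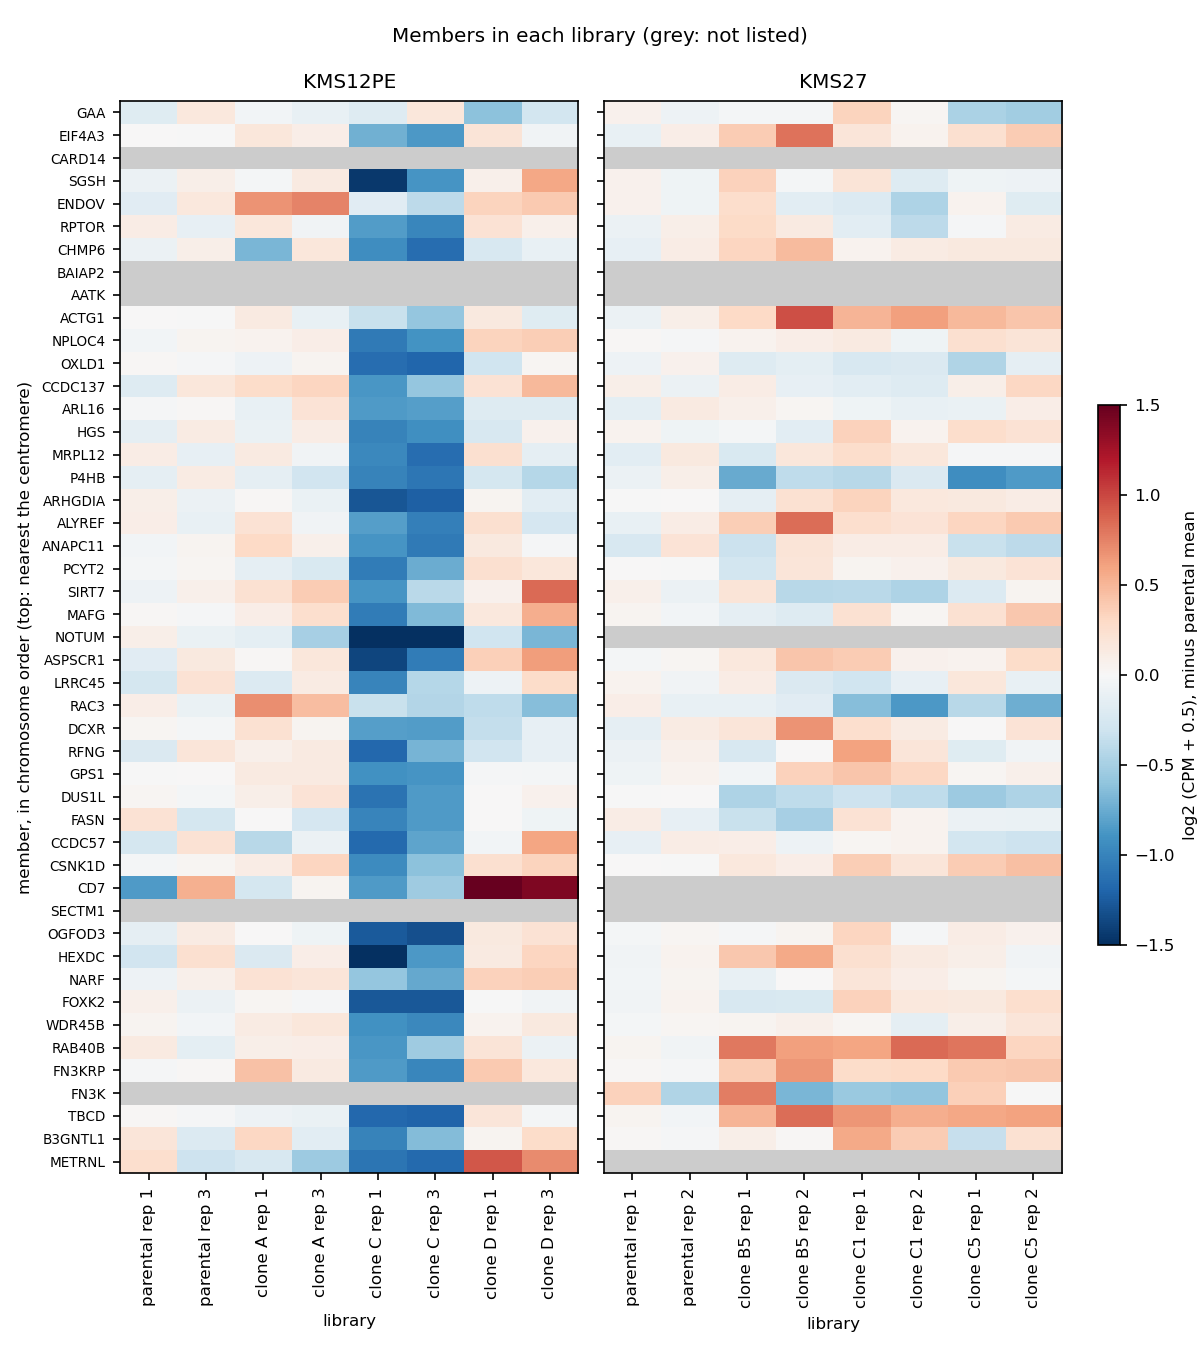
Heat map of log2 (CPM + 0.5) minus the parental mean of the same line, for each member (rows, in chromosome order) and each library (columns, with KMS12PE on the left and KMS27 on the right). Blue is lower and red higher than the parental mean, the colour scale ends at 1.5 in both directions, and grey rows were not listed. Both clone C columns are blue in nearly every row. GAA is an exception, at 18.2 and 23.7 CPM in clone C against 18.4 and 23.6 CPM in the parental libraries.

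Among the lysosomal enzymes, SGSH, which removes sulfate from heparan sulfate, measured 4.85 and 7.41 CPM in clone C and 13.2 to 21.2 CPM (median 14.9) in the other 6 libraries. Clone C was at 39.4% and did not overlap the rest, with a log2 difference (log2FC) of -1.33 ± 0.21 (SE) from the mean of clone A, clone D and the parental cells. GAA, which breaks down lysosomal glycogen, measured 18.4 and 23.6 CPM in the parental libraries, 20.3 and 19.4 in clone A, 18.2 and 23.7 in clone C and 13.6 and 17.3 in clone D. Clone C overlapped the parental cells there (112%, log2FC 0.17 ± 0.15), and clone D had the lowest library. GAA is the first listed gene past 80 Mb, at chr17:80101556-80119879, and its neighbour EIF4A3 at chr17:80135214-80147183 was lower in clone C.

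The RNA-processing members were at 48.7% to 55.1%. EIF4A3, the helicase of the exon junction complex, measured 90.7 and 82.01 CPM in clone C and 144 to 171 CPM (median 154) in the other 6 libraries (55.04%, log2FC -0.86 ± 0.09). ALYREF, an adaptor for mRNA export, measured 99.8 and 86.5 CPM in clone C and 148 to 208 CPM (median 180.4) in the other 6 libraries (51.4%, log2FC -0.96 ± 0.14). Neither gene's clone C libraries overlapped the others. DUS1L, a tRNA dihydrouridine synthase, was at 48.7% and CCDC137 at 51.3%, also without overlap. ENDOV, an endonuclease that cuts inosine-containing RNA, had a low level of 1.41 and 1.13 CPM in clone C and 1.41 to 3.10 CPM in the rest, where the higher clone C library was level with the lowest of the other 6.

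Members of lipid synthesis and nutrient signalling were all lower in clone C. FASN, which builds palmitate, measured 299 and 332 CPM in clone C and 498 to 694 CPM (median 584) in the other 6 libraries (54.6%, log2FC -0.87 ± 0.13). RPTOR, which brings substrates to mTORC1, measured 39.9 and 36.1 CPM in clone C and 65.98 to 83.4 CPM (median 76.6) in the other 6 libraries (50.4%, log2FC -0.99 ± 0.10). PCYT2, an enzyme of phosphatidylethanolamine synthesis, was at 52.6%. In none of the 3 did clone C overlap the rest. FASN libraries within 1 population differed more than those of RPTOR, with 694 and 498 CPM in the parental cells.

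The 6 members of endosomes, vesicles and autophagy were at 35.7% to 57.1%, none overlapping. ASPSCR1, a tether of glucose transporter vesicles, was the lowest member among the 33 with a mean of at least 3 log2 CPM, with 6.26 and 7.98 CPM in clone C and 15.1 to 26.7 CPM (median 19.1) in the other 6 libraries (log2FC -1.46 ± 0.17). HGS, which starts the sorting of receptors for degradation, measured 36.5 and 38.7 CPM in clone C and 62.6 to 80.6 CPM (median 72.9) in the other 6 libraries (51.8%, log2FC -0.95 ± 0.12). CHMP6, a later subunit of the same ESCRT machinery, was at 50.4%. ARL16, an ARF-like GTPase, was among the 5 highest at 56.6% (log2FC -0.82 ± 0.12). WDR45B, an autophagy protein, was at 49.01% and the small GTPase RAB40B at 57.1%.

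The cytoskeletal members were at 42.8% to 72.7%. ARHGDIA, which holds small GTPases inactive in the cytosol, measured 393 and 347 CPM in the parental libraries, 375 and 346 in clone A, 152 and 158 in clone C and 381 and 332 in clone D. Clone C was at 42.8% (log2FC -1.22 ± 0.09), and the other 3 populations overlapped each other. ACTG1, a cytoplasmic actin, measured 2777 and 2738 CPM in the parental libraries, 3032 and 2562 in clone A, 2179.7 and 1847 in clone C and 3062 and 2438 in clone D. Clone C was below the other 6 libraries by a smaller margin (72.7%, log2FC -0.46 ± 0.12). The ACTG1 protein is nearly identical to ACTB, and the gene has many processed copies. Some of its reads may therefore be misplaced, which was not tested.

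RAC3, a small GTPase of actin remodelling, measured 21.8 and 18.9 CPM in the parental libraries, 33.1 and 28.1 in clone A, 16.04 and 14.9 in clone C and 15.5 and 12.9 in clone D. Clone C lay below the parental cells and clone A and overlapped clone D (71.3%, log2FC -0.41 ± 0.13). LRRC45, of the linker between centrosomes, was at 59.9% (log2FC -0.74 ± 0.22). TBCD, a tubulin-folding cofactor, was at 43.5% and CCDC57, a centriolar protein, at 48.1%. In all 3 of these the clone C libraries lay below the other 6. TBCD overlaps B3GNTL1 on the opposite strand, and strandedness is not given. The same holds for 18 of the 20 members that overlap a listed gene, so reads in the shared bases could belong to either.

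**Figure D2:**
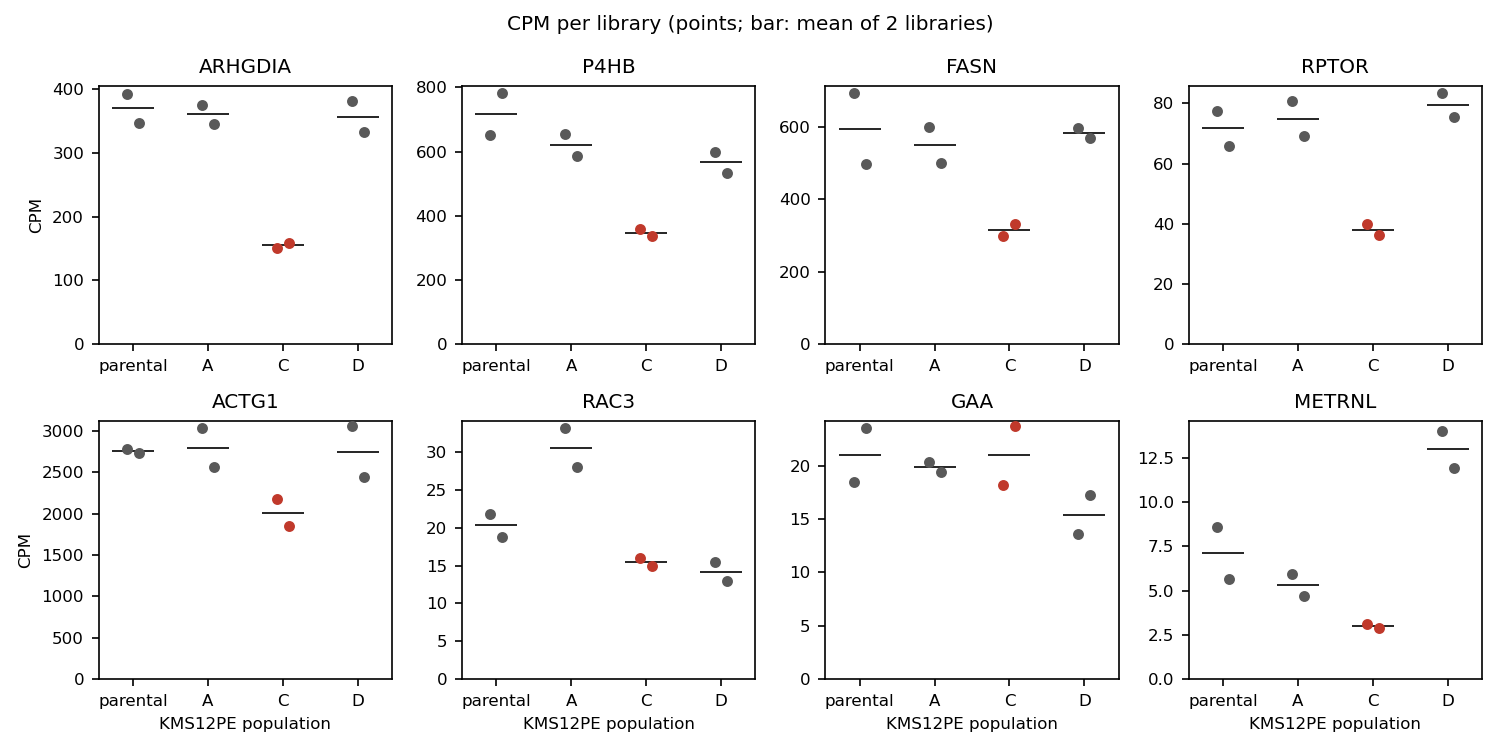
CPM per library (y axis, from 0) in the 4 KMS12PE populations (x axis) for 8 members, with 1 point for each of the 2 libraries and a bar at their mean. Clone C, in red, lies below all other points for ARHGDIA, P4HB, FASN, RPTOR, ACTG1 and METRNL, and overlaps other populations for RAC3 and GAA.

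Members of protein folding and turnover were at 45.7% to 54.8%. P4HB measured 359 and 337 CPM in clone C and 535 to 782 CPM (median 625) in the other 6 libraries (log2FC -0.86 ± 0.10). The 2 clone C libraries were closer to each other than the 2 parental ones, at 652 and 782 CPM. NPLOC4, which links ubiquitinated proteins to the p97 segregase, was at 45.7%. ANAPC11, the RING subunit of the anaphase-promoting complex, was at 47.6%, and GPS1, a subunit of the COP9 signalosome, at 52.2%. Of the mitochondrial members, the ribosomal protein MRPL12 was at 46.8% and OXLD1 at 43.6%. Clone C overlapped the other libraries in none of these 6.

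The transcription and nuclear members were at 41.5% to 54.5%, again without overlap. FOXK2, a forkhead repressor, measured 76.3 and 76.6 CPM in clone C and 175 to 196 CPM (median 184) in the other 6 libraries (log2FC -1.27 ± 0.08), and its clone C libraries lay close together. CSNK1D, a casein kinase of the circadian clock, measured 36.5 and 46.2 CPM in clone C and 69.6 to 89.4 CPM (median 80.2) in the other 6 libraries (51.7%, log2FC -0.95 ± 0.11). MAFG, a small partner of the NRF2 transcription factor, was at 48.3%. SIRT7, a nucleolar deacylase, was at 51.6%, and NARF, which binds prelamin A, at 54.5%. SIRT7 and MAFG overlap on 1 strand, so their reads are not cleanly split.

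The sugar and glycan enzymes, grouped here with the oxygenase-domain protein OGFOD3, were at 38.1% to 56.3%. OGFOD3 measured 8.99 and 8.61 CPM in clone C and 20.2 to 25.9 CPM (median 23.3) in the other 6 libraries (log2FC -1.39 ± 0.12). The hexosaminidase HEXDC was at 39.01%, and the fringe glycosyltransferase RFNG, which modifies Notch receptors, at 50.7%. FN3KRP, which removes sugar adducts from proteins, was at 45.8%, B3GNTL1 at 47.1% and DCXR, which reduces xylulose, at 56.3%. Clone C lay below the other 6 libraries for all 6 of these genes.

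Surface and secreted members were at low levels. NOTUM, an enzyme that inactivates Wnt ligands, had 0 counts in both clone C libraries and measured 6.32 and 5.50 CPM in the parental libraries, 5.28 and 4.02 in clone A and 4.73 and 3.47 in clone D. Set against 3 counts over both clone C libraries (0.118 CPM), it was at least 41.6-fold lower than the mean of the other populations, a bound that covers counting error only. NOTUM was the only member without a count in clone C, and it lies at chr17:81952507-81961840 between the members MAFG (48.3%) and ASPSCR1 (35.7%). METRNL, a secreted protein and the last listed gene of the chromosome (chr17:83079691-83095119), measured 8.61 and 5.66 CPM in the parental libraries, 5.96 and 4.72 in clone A, 3.09 and 2.89 in clone C and 14.04 and 11.9 in clone D (35.2%). CD7, an adhesion receptor best known on T cells, measured 0.351 and 1.73 CPM in the parental libraries, 0.787 and 1.08 in clone A, 0.353 and 0.565 in clone C and 4.57 and 3.56 in clone D. CD7 in clone C overlapped the parental cells, and clone D was highest.

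**Figure D3:**
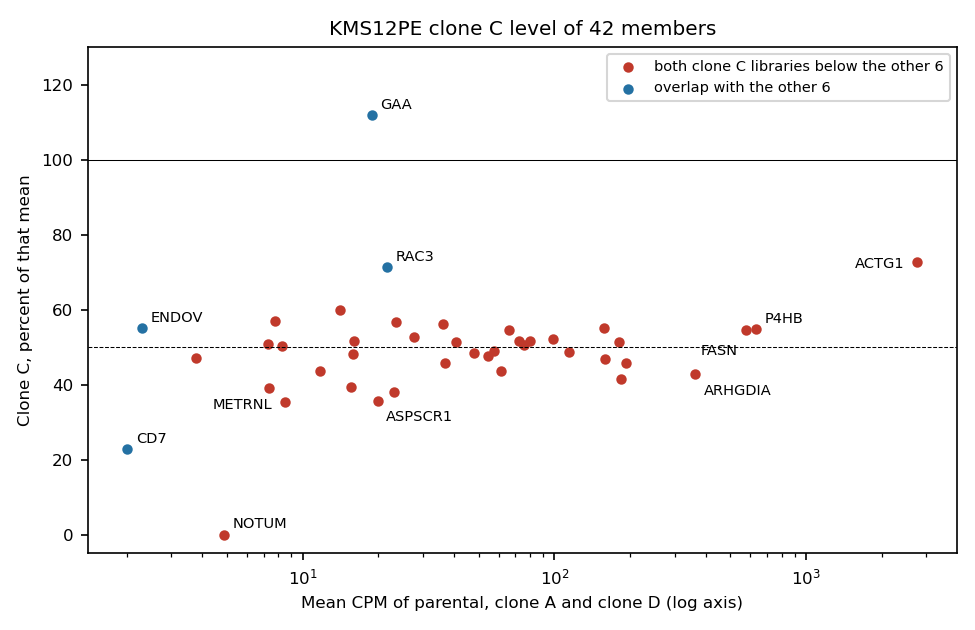
Clone C level as a percent of the mean of parental, clone A and clone D (y axis) against that mean in CPM (x axis, log scale) for the 42 members listed in KMS12PE, with lines at 50% and 100%. Red points had both clone C libraries below the other 6, and blue points overlapped them. Most points lie along 50% at every level, with NOTUM at 0% and GAA above 100%.

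The low stretch began before the 80 Mb bound. Just outside that bound, ENGASE, CBX2, CBX8 and TBC1D16 were at 48.2%, 59.0%, 47.1% and 64.8% in clone C. Just inside it, GAA was at 112%, EIF4A3 at 55.04%, SGSH at 39.4%, SLC26A11 at 42.9% and RNF213 at 48.2%. SLC26A11 and RNF213 are no members. At the chromosome end TBCD, B3GNTL1 and METRNL were at 43.5%, 47.1% and 35.2%. The 11 listed genes past 80 Mb that are no members had a median log2FC of -1.07 against parental, and 10 of them lay below the other 6 libraries.

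Between 76 and 80 Mb, 31 of 34 listed genes (91.2%) lay below the other 6 libraries, with a median log2FC of -1.03 against parental. Before 76 Mb, 29 of 610 genes of the chromosome (4.75%) did so, at a median of 0.00. Of the genes not placed on chromosome 17, 4.3% did so. From 76 Mb to the end the count was 79 of 87 (90.8%). The bound of 76 Mb is a round number set after the values were seen, so none of this was tested. In clones A and D the same 87 genes had medians of 0.07 and 0.06.

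**Figure D4:**
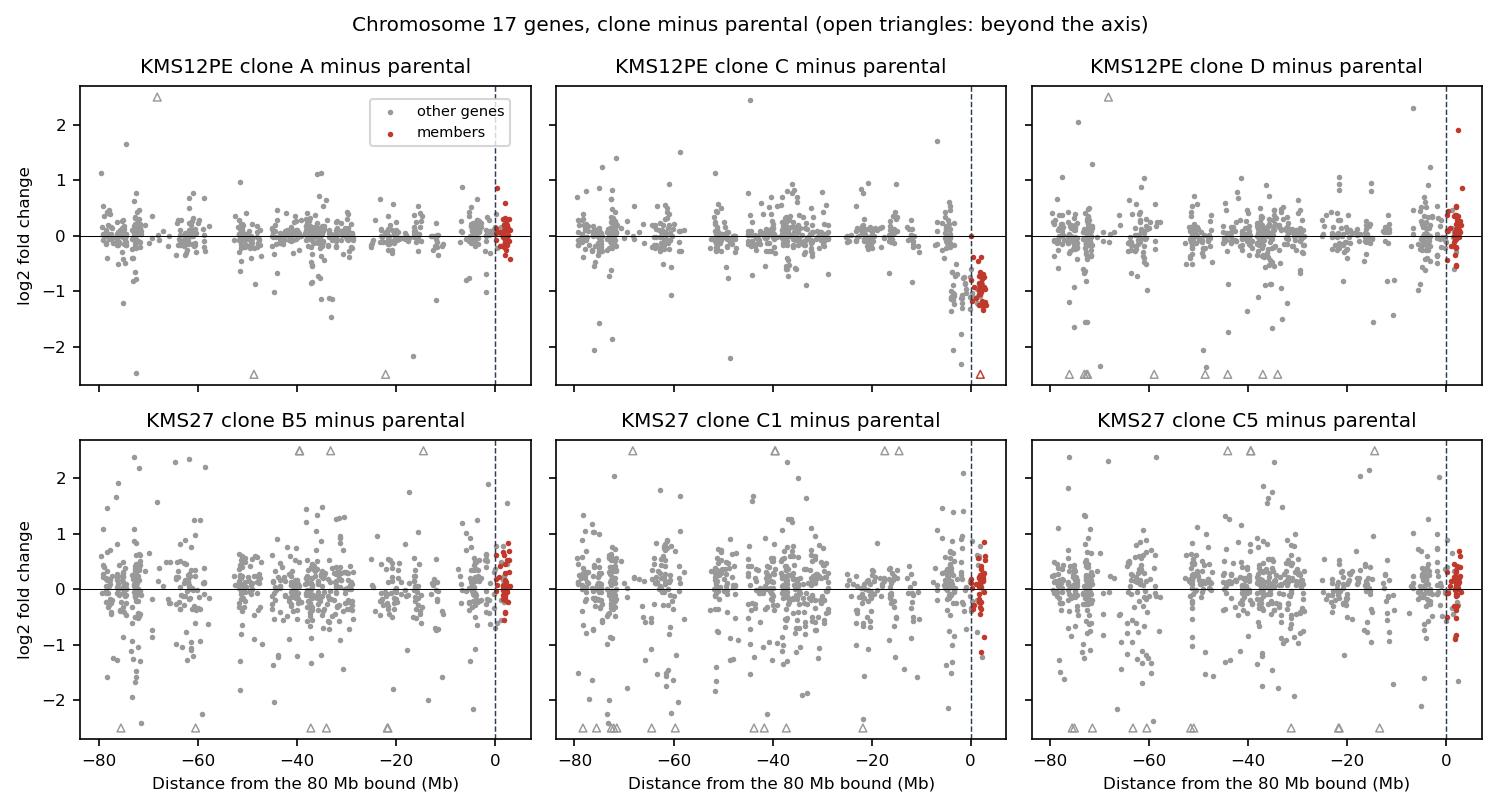
Log2 fold change of each clone against its parental population (y axis) for every listed gene of chromosome 17, by distance from the 80 Mb bound in Mb (x axis, dashed line at 0), with members in red. Triangles mark values beyond the axis. In clone C of KMS12PE the genes from 76 Mb on drop to a median of -0.98, and in the other 5 clones they do not (medians 0.04 to 0.14).

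Clones A and D of KMS12PE differed from each other in 2 of 42 members, 1 higher in clone D (2.81% of all genes) and 1 lower (3.96%), against 6.77% of all genes in either direction (edgeR quasi-likelihood test, Benjamini-Hochberg adjusted p under 0.05 over all genes, here and below). Members were chosen as not low in either clone, so a low count here is partly set by the choice. RAC3 was lower in clone D than in clone A, with both clone D libraries below both of clone A (log2FC -1.12 ± 0.16, adjusted p = 0.00313). METRNL was higher in clone D, again with no overlap (log2FC 1.28 ± 0.25, adjusted p = 0.0175). The METRNL call was lost without clone A replicate 1 (adjusted p = 0.0674), without clone A replicate 3 (adjusted p = 0.154) and without clone D replicate 1 (adjusted p = 0.0639). RAC3 passed under every alternative run. With the replicate number as a block, 8 of 42 members passed against 20.9% of all genes. NPLOC4, PCYT2, ASPSCR1, CCDC57, CD7 and METRNL were then higher in clone D, and RAC3 and DCXR lower. CD7 had the largest difference of these (log2FC 2.06, adjusted p = 0.0016 with the block and 0.0552 without).

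Many members work in a complex, pathway or enzyme family with genes outside the low stretch. Of 166 such partner genes in 12 lists, 161 were tested in clone C against parental, and 2 were higher (0.904% of all genes) and 0 lower (0.88%), against 1.78% of all genes called in either direction. At an unadjusted p under 0.05 there were 13 of the 161, and the share of all genes at that threshold is not given. Of the tested partner genes 14 lie on chromosome 17, and 0 of these from 76 Mb on. The shares of all genes, here and with the block below, include the genes of the low stretch itself. These raise the share called lower in clone C. The median log2FC of the 161 was -0.02, where the members' was -0.96. DEPTOR, a partner and inhibitor of mTOR beside RPTOR, measured 128 and 105 CPM in clone C, 56.7 and 50.3 in the parental cells, 72.9 and 60.7 in clone A and 42.1 and 30.7 in clone D. It was higher in clone C than in parental cells (log2FC 1.12, adjusted p = 0.0129), and clone C did not overlap the other libraries. The call was lost without clone C replicate 1 (adjusted p = 0.0893), parental replicate 1 (adjusted p = 0.0934) and parental replicate 3 (adjusted p = 0.14). MRPL38, of the large mitochondrial ribosome like MRPL12, was higher by log2FC 0.47 (adjusted p = 0.0483). It lies on chromosome 17 at chr17:75898643-75905413, shortly before the 76 Mb bound of the low stretch. Its call was lost with DESeq2 (adjusted p = 0.0585) and without each library of clone A, clone C or the parental cells (adjusted p = 0.102 to 0.286).

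By list, none of the partners of EIF4A3 (6 tested), ALYREF (10), GPS1 (8), ANAPC11 (13), NPLOC4 (3) or HGS and CHMP6 (17) passed. Their medians ran from -0.08 to 0.02. None of 8 disulfide isomerases beside P4HB (median -0.17), 12 genes of actin, tubulin folding and small GTPases (-0.06), 8 of fatty acid synthesis (-0.02) or 18 lysosomal hydrolases (0.00) passed either. Of the 10 mTORC1 partners DEPTOR alone passed (list median 0.01), and of the 48 mitochondrial ribosomal genes MRPL38 alone (-0.02). With the replicate block, 14 of the 161 passed, 7 higher and 7 lower, against 7.08% of all genes. These were 1 mTORC1 partner (higher), 3 disulfide isomerases (1 higher, 2 lower) and 4 mitochondrial ribosomal genes (3 higher, 1 lower). The others were 1 gene of the actin and small GTPase list (higher), 4 of fatty acid synthesis (1 higher, 3 lower) and 1 lysosomal hydrolase (lower).

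In KMS27, which played no part in choosing them, most members did not pass the test against parental cells, and the few that did went in both directions. The mean of clones B5, C1 and C5 against parental called 6 of 40 members (15%), 4 higher (13% of all genes) and 2 lower (12.7%), against 25.8% of all genes in either direction. At a median log2FC of 0.07 (all genes -0.01), 27 members lay above 0 and 13 below. TBCD measured 50.2 and 47.2 CPM in the parental libraries, 69.4 and 87.7 in clone B5, 77.1 and 71.1 in clone C1 and 73.3 and 74.4 in clone C5. All 6 clone libraries lay above both parental ones (log2FC 0.63 ± 0.11, adjusted p = 0.00316), and the call held under every alternative run. P4HB measured 1269 and 1436 CPM in the parental libraries, 800.3 and 1036 in clone B5, 1014 and 1168 in clone C1 and 707 and 752 in clone C5. All 6 clone libraries were below the parental ones (log2FC -0.59 ± 0.13, adjusted p = 0.0118). DUS1L, with 48.9 and 49.1 CPM in parental and 33.3 to 39.5 in the clones, fell too (log2FC -0.43 ± 0.08, adjusted p = 0.00515). FN3KRP rose from 27.2 and 26.6 to 32.7 to 42.8 CPM (log2FC 0.41 ± 0.10, adjusted p = 0.0187). RAB40B rose from 2.03 and 1.87 to 2.55 to 3.92 CPM (log2FC 0.80 ± 0.24, adjusted p = 0.0383), and CSNK1D from 70.3 and 69.9 to 75.3 to 95.8 CPM (log2FC 0.28 ± 0.09, adjusted p = 0.0448). In each of these 4 genes the clones did not overlap the parental libraries. Without parental replicate 1 or without parental replicate 2, 1 member passed, TBCD. The count of members called was lower without clone C5 replicate 1 and higher without clone B5 replicate 1. All KMS27 populations share 1 estimate of the spread, also in tests that hold no clone B5 library. The libraries of clone B5 differed most from each other (chi-square per degree of freedom 58.0, against 11.8 to 22.5 in the other KMS27 populations). The share of all genes called in runs without a library, here and below, is not given. A changed count therefore cannot be read as particular to the members. P4HB was lost without either parental library or clone C5 replicate 1 (adjusted p = 0.0529 to 0.133). DUS1L was lost without either parental library (adjusted p = 0.0645 to 0.073). FN3KRP was lost without either parental library or clone C5 replicate 2 (adjusted p = 0.0516 to 0.134). RAB40B was lost without either parental library, either library of clone C1 or clone C5 replicate 1 (adjusted p = 0.0574 to 0.201). CSNK1D was lost without either parental library, clone C1 replicate 1 or either library of clone C5 (adjusted p = 0.0744 to 0.236).

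Taken 1 clone at a time, against the same 2 parental libraries, clone B5 had 7 of 40 members called (21% of all genes), 4 higher (10.8%) and 3 lower (10.2%). EIF4A3 (log2FC 0.61 ± 0.16, adjusted p = 0.0236), ALYREF (log2FC 0.63 ± 0.16, adjusted p = 0.0225), FN3KRP (log2FC 0.53 ± 0.12, adjusted p = 0.016) and TBCD (log2FC 0.69 ± 0.13, adjusted p = 0.0059) were higher. P4HB (log2FC -0.56 ± 0.17, adjusted p = 0.0432), DUS1L (log2FC -0.43 ± 0.10, adjusted p = 0.0174) and FASN (log2FC -0.41 ± 0.12, adjusted p = 0.0451) were lower. Clone B5 counts changed to 1 without parental replicate 1, 0 without parental replicate 2 and 3 without clone B5 replicate 2. By gene, EIF4A3, ALYREF and FN3KRP were lost without either parental library or clone B5 replicate 2 (adjusted p = 0.0512 to 0.164). TBCD was lost without parental replicate 2 (adjusted p = 0.0536). P4HB was lost without either parental library, clone B5 replicate 1, either library of clone C1 or either library of clone C5 (adjusted p = 0.074 to 0.22). DUS1L was lost without either parental library (adjusted p = 0.102 to 0.115). FASN was lost without either parental library, clone B5 replicate 2, either library of clone C1 or either library of clone C5 (adjusted p = 0.0693 to 0.334). EIF4A3 and ALYREF, both of mRNA processing, were highest in clone B5 replicate 2, at 218 and 183 CPM against 160.5 and 131 in replicate 1.

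Clone C1 had 2 of 40 members called (21.6% of all genes), 1 higher (11.5%) and 1 lower (10.1%). They were TBCD (log2FC 0.61 ± 0.13, adjusted p = 0.0107) and DUS1L (log2FC -0.35 ± 0.10, adjusted p = 0.0393). The C1 count was 0 without either parental library or without clone C1 replicate 1. It was 1 without clone C1 replicate 2, clone C5 replicate 1 or clone C5 replicate 2, 9 without clone B5 replicate 1 and 8 without clone B5 replicate 2. TBCD was lost without either parental library or clone C1 replicate 1 (adjusted p = 0.0562 to 0.0969). DUS1L was lost without either parental library, either library of clone C1 or either library of clone C5 (adjusted p = 0.0762 to 0.207). Clone C5 had 6 called (19.7% of all genes), 3 higher (10.4%) and 3 lower (9.28%). CSNK1D (log2FC 0.42 ± 0.10, adjusted p = 0.0226), FN3KRP (log2FC 0.40 ± 0.12, adjusted p = 0.0474) and TBCD (log2FC 0.60 ± 0.13, adjusted p = 0.0113) were higher. GAA (log2FC -0.50 ± 0.13, adjusted p = 0.0226), P4HB (log2FC -0.89 ± 0.17, adjusted p = 0.0068) and DUS1L (log2FC -0.51 ± 0.10, adjusted p = 0.00861) were lower. The C5 count was 1 without parental replicate 1, 0 without parental replicate 2 or either library of clone C5, and 11 without either library of clone B5. CSNK1D, TBCD, GAA and DUS1L were lost without either parental library or either library of clone C5 (adjusted p = 0.0503 to 0.149). FN3KRP was lost without either parental library, either library of clone C1 or either library of clone C5 (adjusted p = 0.081 to 0.21). P4HB was lost without parental replicate 2 or either library of clone C5 (adjusted p = 0.058 to 0.0896). FN3KRP in clone C5 was also lost with DESeq2 (adjusted p = 0.0614) and with RLE scaling (adjusted p = 0.0547).

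Among the 3 KMS27 clones, 3 of 40 members differed (joint test, 13.7% of all genes). GAA measured 43.2 and 39.1 CPM in the parental libraries, 40.2 and 40.4 in clone B5, 51.9 and 41.98 in clone C1 and 29.4 and 28.6 in clone C5 (adjusted p = 0.018), lowest in clone C5. FASN measured 192 and 163 CPM in the parental libraries, 141 and 126 in clone B5, 206 and 184 in clone C1 and 166 and 166 in clone C5 (adjusted p = 0.0453), lowest in clone B5. FOXK2 measured 69.7 and 75.1 CPM in the parental libraries, 61.1 and 61.8 in clone B5, 92.2 and 80.8 in clone C1 and 79.99 and 86.3 in clone C5 (adjusted p = 0.0311), also lowest in clone B5. The count was 5 with DESeq2. It was 0 without clone C1 replicate 1 or either library of clone C5, 1 without clone C1 replicate 2 or either parental library, and 12 without either library of clone B5. GAA was lost without clone C1 replicate 1 or either library of clone C5 (adjusted p = 0.0746 to 0.111). FASN and FOXK2 were lost without either parental library, either library of clone C1 or either library of clone C5 (adjusted p = 0.0579 to 0.202). ACTG1 (2145 and 2421 CPM in the parental libraries, 2808 and 4448 in clone B5, 3258 and 3509 in clone C1 and 3198 and 3057 in clone C5) had all 6 clone libraries above the parental ones and did not pass (log2FC 0.56 ± 0.18, adjusted p = 0.0512). RAC3, at 0.538 to 1.52 CPM in KMS27, had a low level and did not pass (log2FC -0.72 ± 0.30, adjusted p = 0.116).

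**Figure D5:**
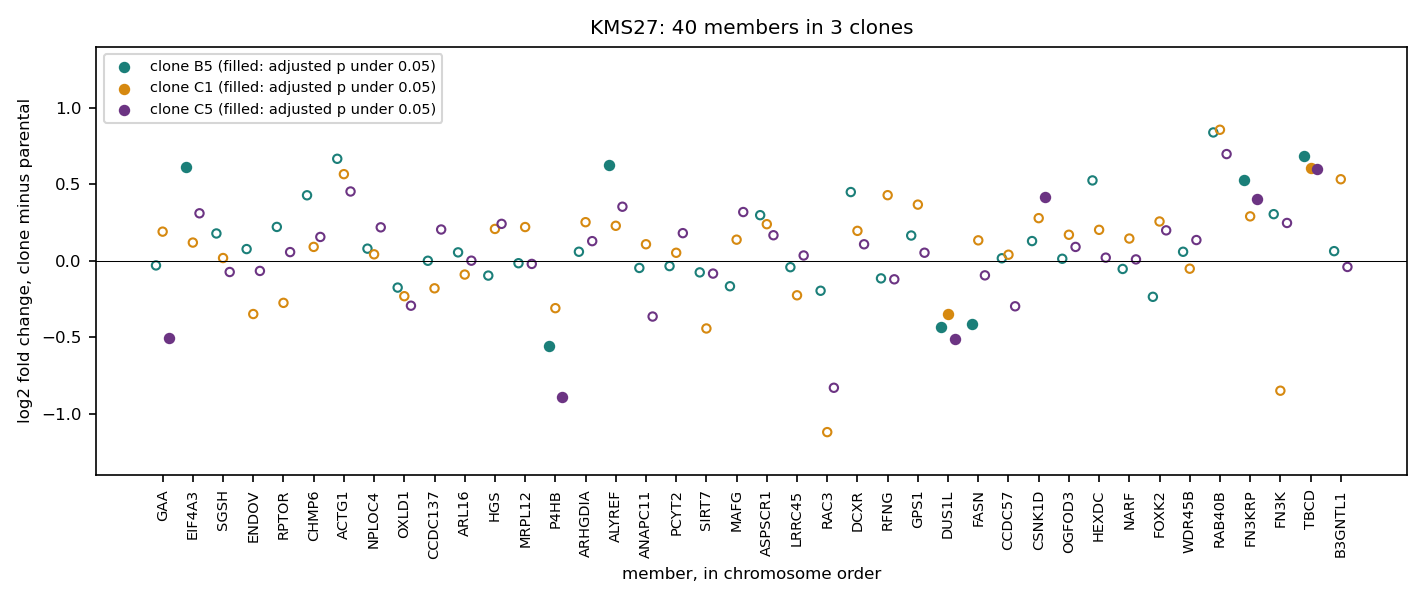
Log2 fold change against parental (y axis) of the 40 members listed in KMS27 (x axis, in chromosome order) in clones B5, C1 and C5. Filled points passed at an adjusted p under 0.05 and open points did not. The members scatter on both sides of 0, with TBCD filled above 0 and DUS1L filled below 0 in all 3 clones.

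Set against exon length, the members span a wide range of levels. In parental KMS12PE cells ACTG1 had the highest level per length (921 CPM per kb of exon), followed by MRPL12 (151), P4HB (135), ARHGDIA (127) and ALYREF (112). ENDOV had the lowest (0.227). In parental KMS27 cells ACTG1 (763) and P4HB (255) led, and RAB40B was lowest (0.315). The lines' tables were normalised separately, so the levels are not compared between lines.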

How the data were processed

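Poly-A RNA libraries were made with the Roche Kapa mRNA HyperPrep kit from 200 ng of RNA, per the labels' protocols. For KMS12PE and for KMS27 the authors deposited a table of raw read counts, with gene symbols in rows and libraries in columns. The build was hg38, per the submitters' processing notes. Not given in the sources used here were the aligner, the counter, the annotation and whether strand was used. Every listed gene had at least 5 counts in at least 4 of its line's 8 libraries, a filter found from the values.

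The lines were fitted separately in edgeR 4.0.16 (R 4.3.3): filterByExpr (12279 and 14088 genes kept), TMM, 1 mean per population, glmQLFit and glmQLFTest, 2-sided, with Benjamini-Hochberg adjustment over all genes tested and calls under 0.05. The fit was also run on simulated data with independent libraries and the same dispersion for all genes of a line. The real libraries were partly correlated and unevenly noisy, so that run does not vouch for the calls here. The coefficient of variation between libraries of a population, from the common dispersion in edgeR, was 11.9% (KMS12PE) and 14.3% (KMS27). This spread may be technical. Total counts per library are given with the results. Fold changes come from the fit, and CPM from the counts divided by TMM library totals. Gene positions and exon lengths are from GENCODE 29, and start windows from RefSeq. No 2 libraries of a population agreed within sampling noise (chi-square per degree of freedom 5.19 to 58.0).

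The main fits had no replicate block. Same-numbered KMS12PE libraries deviated together across populations (correlations 0.454 to 0.747 over 6 pairs), a pairing that comes from the data and the numbers in the labels. Counts with the block are therefore given beside the main ones, without a blocked value for every gene whose call changed. The alternatives were RLE scaling, no filter, DESeq2 1.42.0, the block, and leaving out each library.

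The members and the partner lists were chosen with earlier results of these data known. Members were named with values if called in a test, if among the 5 lowest or 5 highest in clone C with a mean log2 CPM of 3 or more, if on a set list (FASN, P4HB, ACTG1, RPTOR, CD7, ARHGDIA, EIF4A3, ALYREF, CSNK1D, HGS, SGSH and GAA), or if next to the 80 Mb bound or the chromosome end. Partner genes were named if called, up to 2 per list. NOTUM, METRNL, RAC3 and ENDOV were also given after their values were seen, as were the percents of other members. Some neighbouring genes are not reported here.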

Additional observations from a re-analysis of the deposited data

Results flagged for a closer look

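The test among the 3 KMS27 clones found a difference between clones in 3 of 40 members, against 13.7% of all genes. GAA had an adjusted p of 0.018, FASN of 0.0453 and FOXK2 of 0.0311 (edgeR quasi-likelihood test, 40 members tested). GAA was lowest in clone C5, and FASN and FOXK2 were lowest in clone B5.

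The test of clone D against clone A in KMS12PE found a difference in 2 of 42 members, against 6.77% of all genes. Members were chosen as not low in either clone, so this low count is partly set by the choice. RAC3 had an adjusted p of 0.00313 and was lower in clone D, and METRNL had an adjusted p of 0.0175 and was higher in clone D (edgeR quasi-likelihood test, 42 members tested). With the replicate number as a block, 8 of 42 members passed, against 20.9% of all genes. Of the calls named in this section, only that of RAC3 was kept in every alternative run. No explanation was tested for any of these differences.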

How the results depend on the processing

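No call of a member changed direction, and neither did the member medians given below for clones A, C and D. Scaling with RLE and the fit without a filter kept every count of called members within 1.5 times its main value. DESeq2 moved the count among the KMS27 clones from 3 to 5. With the replicate block, members called rose from 2 to 8 for clone D against clone A in KMS12PE. They rose from 2 to 5 for clone C1 and from 3 to 5 among the clones in KMS27. Partner genes called in clone C rose from 2 to 14. Of all genes, the block called 20.9% for clone D against clone A and 7.08% for clone C against parental. The shares of all genes for KMS27 with DESeq2 or the block are not given. In KMS27 same-numbered libraries correlated at 0.0133 to 0.767, so the numbers were not taken as pairs there. The value of 0.767 was that of clone B5 with the parental cells, above the highest KMS12PE pair (0.747). The main test of clone B5 against parental thus left out a pairing that may be present. It called 7 members, and 9 with the block. The block changed no other count by over 1.5 times.

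Leaving out 1 library leaves a population with 1 library, assumed to vary like the others. The share of all genes called in these runs is not given, so a changed count cannot be read as particular to the members. Counts of members called then ran from 1 to 12 for the mean of the KMS27 clones, 0 to 10 for clone B5, 0 to 9 for clone C1, 0 to 11 for clone C5, 0 to 12 among the clones and 1 to 3 for clone D against clone A. Partner genes called ran from 0 to 2. Member medians in clone C ran from -1.001 to -0.89 against parental and from -1.12 to -1.01 against clones A and D. Those of clone A against parental ran from 0.060 to 0.11 and of clone D from 0.063 to 0.11. Members with clone C below the other libraries numbered 38 to 40. Of 28 single-gene calls, each under its alternatives (336 in all), 228 kept the call, 108 lost it and 0 reversed. TBCD in the mean of the KMS27 clones and RAC3 in clone D against clone A were lost nowhere. Each name is 1 clone, and its 2 libraries are not stated to come from separate cultures. A clone's own difference therefore cannot be told apart from that of its culture or handling. In KMS12PE, 3 counts were 0.212 to 0.527 CPM, which limits CD7, ENDOV and NOTUM.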
